A study of Mus musculus with 88 samples.

Results

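A group of 33 interferon response genes was followed in 6 tissues of mice that had received partial body irradiation. The genes were chosen by name, as widely known targets of interferon signaling, and were found on the arrays by gene symbol or older alias. Of the 33 genes, 32 had a probe and 28 had a probe that was detected in at least 1 tissue, out of 16593 gene symbols on the arrays. Transcripts were measured with Illumina MouseRef-8 arrays in spleen, liver, lungs, thyroid and 2 parts of the kidney (cortex and medulla) at 24 h after exposure to 2 Gy of 4 MV photons or after sham irradiation. All 14 mice were female BALB/c nude animals, aged 4 months and anesthetized for the procedure. The nude strain (Foxn1nu) lacks a functional thymus and is poor in mature T lymphocytes, and all groups, sham included, shared this background. Group A (3 mice) was irradiated at the collum, the neck region that holds the thyroid. Group B (3 mice) was irradiated at the thorax and abdomen, and group C (3 mice) at collum, thorax and abdomen. Group D (5 mice) was the sham-irradiated control.

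Interferons are secreted proteins that cells release when they sense foreign or misplaced nucleic acid. Type I interferon binds the receptor pair Ifnar1 and Ifnar2, the kinases Jak1 and Tyk2 become active, and a complex that holds Stat2 and Irf9 enters the nucleus and binds a DNA element called the interferon-stimulated response element. The genes switched on in this way encode proteins that bind or degrade viral RNA, block membrane fusion, tag proteins with Isg15, and restrain or renew the response itself. In the spleen many of these genes have a basal level in macrophages and other leukocytes.

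The interferon-stimulated response element has a short repeated core, and the promoters of 5 genes are shown because they carry this core or, for a gene that rose in the kidney medulla, do not. The RefSeq promoter windows used (build GRCm38.p6) run from 250 bases before to 50 bases after the transcription start, and 25 of the 33 genes had one. The core was searched as GAAA followed, after any 2 bases, by a second GAAA, and on the reverse strand as TTTC, any 2 bases and TTTC. Matches could overlap. It was found in 12 of the 25 genes (48%) and in 1079 of 27025 genes with a window (3.99%). The gamma-activated sequence TTCNNNGAA, which reads the same on both strands, was found in 7 of the 25 genes (28%) and in 9.55% of all genes with a window. Stretches of 100 bases upstream of the start are given below, 5′ to 3′ on the strand of the gene, with each match of the core in capitals. A match is a description of the letters and not a tested site. Ifit3 (chr19:34583345-34583444, plus strand) has 2 separate cores, and Isg15 (chr4:156200836-156200935, minus strand) has 3 that overlap. Gbp3 (chr3:142559944-142560043, plus strand) has 2 that overlap, and Rsad2 (chr12:26456518-26456617, minus strand) has 1. The window of Oasl2 (chr5:114896834-114896933, plus strand) holds none, which says only that these letters are not there.
Ifit3: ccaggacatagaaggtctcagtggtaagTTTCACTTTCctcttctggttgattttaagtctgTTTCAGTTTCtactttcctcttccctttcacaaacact
Isg15: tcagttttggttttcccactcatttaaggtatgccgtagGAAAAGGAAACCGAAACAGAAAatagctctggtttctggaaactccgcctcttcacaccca
Gbp3: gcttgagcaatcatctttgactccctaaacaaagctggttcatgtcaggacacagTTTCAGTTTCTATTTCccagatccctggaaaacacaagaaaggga
Rsad2: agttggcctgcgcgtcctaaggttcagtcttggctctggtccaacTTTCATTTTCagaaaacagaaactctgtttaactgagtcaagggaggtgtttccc
Oasl2: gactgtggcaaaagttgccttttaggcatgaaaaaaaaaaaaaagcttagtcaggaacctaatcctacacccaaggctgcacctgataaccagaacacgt

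Levels are given as log2 intensity after background correction and quantile normalization within a tissue, and differences as log2 ratios against sham mice. A gene was represented by 1 probe in all tissues, and it was measured in a tissue if that probe was detected on at least 3 arrays. On this rule the spleen and lungs each had 27 measured genes, the liver and kidney medulla 25, the kidney cortex 24 and the thyroid 20. Ifit1, Mx1, Oas1a and Xaf1 had probes that were not detected in any tissue, and Ifi44 had no probe. Oas3 was measured only in the spleen, Ifih1 only in the lungs, Rtp4 in 3 tissues (liver, lungs and spleen) and Isg20 in 3 (kidney medulla, lungs and spleen). A gene was called where limma gave an adjusted p (Benjamini-Hochberg, over all probes of the tissue) under 0.01 and the log2 ratio was 0.58 or more, up or down. Because this threshold left few calls, the number of genes at an unadjusted p under 0.05 is given as a description beside the same share of all probes tested. The comparisons of groups A, B and C in a tissue share their sham mice and are therefore not independent of each other.

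Markers of a neighboring organ were high in some libraries. The mean log2 intensity of 5 pancreas acinar markers was 10.22 in the spleen of group B replicate 3, 7.39 and 8.39 in replicates 2 and 3 of group C, and 5.57 to 6.27 in the other spleens. Of 5 lung epithelial markers only Ager was measured in the kidney medulla. It read 8.89 in group B replicate 3 and 5.06 to 6.34 in the other medullas. Counts of genes higher than sham without each of these libraries are given beside the results. The counts of the direct comparisons at an unadjusted p under 0.05, and those of the marker lists, include these libraries. Tubule markers also varied. Means of 4 medullary markers in the medulla were 12.58 to 12.70 (A), 12.26 to 12.49 (B), 12.48 to 12.77 (C) and 12.11 to 12.45 (sham). In the cortex 5 proximal markers had 11.51 to 11.61 (A), 11.75 to 11.92 (B), 11.38 to 11.85 (C) and 11.89 to 12.24 (sham). In the medulla the proximal markers ran from 9.75 to 11.35 in group C and 11.12 to 11.58 in sham mice. The part of cortex or medulla in these samples was not tested.

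In the spleen of group B, whose spleens lay in the field, 25 of 27 measured genes lay above the sham mean, and the median log2 ratio was 0.46, against -0.01 over all probes. At an unadjusted p under 0.05, 12 genes were higher (44.4%) and 0 were lower, where 4.22% of all 12167 probes were higher and 5.38% were lower. None of the 27 passed the threshold for a call, which 6 probes of the tissue did (0.0493%). Without replicate 3 of group B, the mouse with high pancreas markers, 11 genes were higher. The highest ratio was that of Ifit3, whose protein is a cofactor of the Ifit1 complex that binds foreign RNA at its cap. Its log2 intensity was 10.30, 10.12 and 10.19 in the group B mice and 9.31, 8.80, 9.05, 8.88 and 8.32 in the sham mice. All 3 irradiated mice lay above every sham mouse. The log2 ratio was 1.33 ± 0.24 (SE), or 2.52-fold, with an adjusted p of 0.047 in limma.

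Oas2 and Oasl2 belong to the family of 2′-5′ oligoadenylate synthetases, whose enzymes activate an RNA-cleaving nuclease. Oas2 read 9.34, 9.20 and 8.80 in group B and 8.50, 8.10, 8.27, 7.36 and 7.69 in sham mice, a log2 ratio of 1.13. Oasl2 read 9.65, 9.36 and 9.68 in group B and 9.10, 8.48, 8.24, 8.42 and 8.24 in sham mice, a log2 ratio of 1.07. In both genes the group B mice were above all sham mice. Mx2, a dynamin-like GTPase of the antiviral response, read 7.92, 7.32 and 7.22 against 6.95, 6.77, 6.76, 5.78 and 6.43. The log2 ratio was 0.95, again without overlap.

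The genes for membrane and secreted proteins had 4 of 5 measured members higher in the spleen of group B at an unadjusted p under 0.05, with a median log2 ratio of 0.62. The IFIT genes had 2 of 2 and a median of 1.02, and the OAS family 3 of 4 and a median of 0.83. Lgals3bp, a secreted glycoprotein that binds galectins, read 11.54, 11.50 and 11.63 in group B and 10.99, 10.57, 10.78, 10.70 and 10.23 in sham mice. Its log2 ratio was 0.90 ± 0.18 (SE), with an adjusted p of 0.11 in limma. Ifitm3, a membrane protein that hinders fusion of virus and endosome, read 13.41, 13.38 and 13.58 against 13.02, 12.65, 12.84, 12.86 and 12.83. The log2 ratio was 0.62 ± 0.13 (SE), with an adjusted p of 0.11 in limma. All 3 mice lay above the sham mice for both genes. Ly6e, a lipid-anchored surface protein of the Ly6 family, had a log2 ratio of 0.59, and Bst2, which tethers budding virus particles to the cell, had one of 0.80.

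Other genes of the group showed no such difference in the spleen of group B. Isg15, the ubiquitin-like modifier, read 11.38, 11.09 and 11.12 in group B and 11.70, 11.06, 10.67, 10.82 and 11.61 in sham mice, a log2 ratio of 0.03. Rsad2, the enzyme viperin that makes a chain-terminating nucleotide, had a log2 ratio of 0.02. The 2 sets of values overlapped for both genes. Of the factors, Irf7, the inducible regulator of type I interferon genes, had a log2 ratio of 0.81, while Irf1 had 0.12, Irf9 had 0.02 and Stat2 had 0.29. Of the 5 genes whose promoters are shown above, Ifit3 and Gbp3 (with the core) and Oasl2 (without it) were among the 12 higher genes, and Isg15 and Rsad2 (with the core) were not.

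In the spleen of group C the median over the genes lay between sham and group B. In the direct comparison of B against C, 17 of 27 genes were higher in B and 10 in C. At an unadjusted p under 0.05 these were 5 and 1 (Isg20), and the share of all probes is not given for this comparison. Against sham the median log2 ratio of group C was 0.33. At an unadjusted p under 0.05, 5 of 27 genes were higher (18.5%) and 0 were lower, where 4.26% of all probes were higher and 5.96% were lower. None was called, against 8 probes in the tissue (0.0658%). Ifit3 read 9.65, 9.77 and 8.92, with 1 mouse inside the sham range, and Lgals3bp read 10.95, 11.59 and 11.32. The log2 ratios were 0.58 ± 0.24 and 0.63 ± 0.18 (SE). Without replicate 1 of group C only 1 gene was higher, without replicate 2 of group C 5 were, without replicate 3 of group C 10 were, and without replicate 1 of the sham mice 8 were.

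In the spleen of group A, which lay outside the field, the median log2 ratio was -0.07. At an unadjusted p under 0.05, 0 of 27 genes were higher and 2 were lower (Ifit2 and Irf9), where 5.31% of all probes were higher and 4.64% were lower. None was called, against 1 probe in the tissue (0.00822%). Ifit3 read 8.42, 8.41 and 9.06 in this group, all within the sham range, and Lgals3bp read from 10.27 to 10.66. On both dimmer probes of Ifit3 the ratios were lower, -0.70 and -0.74, with adjusted p of 0.37 and 0.50 in limma. The intervals of the log2 ratios were -0.75 to 0.27 for Ifit3 and -0.57 to 0.22 for Lgals3bp (95% confidence).

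The direct comparison asks whether the spleen differed between the 2 separate fields. Of 27 genes, 13 were lower in group A (48.1%) and 1, Trim25, was higher at an unadjusted p under 0.05, where 9.57% of all probes were lower and 11.1% were higher. The median log2 ratio of A against B was -0.53, and over all probes it was 0.02. No gene was called on its chosen probe, while 10 probes of the tissue were (0.0822%). The smallest adjusted p was that of Ifit3, with a log2 ratio of -1.57 ± 0.27 (SE) and an adjusted p of 0.020 in limma. Ifit3 has 2 further, dimmer probes, and 1 of them was called in this comparison. That probe read 5.65, 5.21 and 5.70 in group A, against 7.06, 7.06 and 7.61 in group B, so that the groups did not overlap. Its log2 ratio was -1.73 ± 0.26 (SE), or 3.31-fold lower in group A, with an adjusted p of 0.0093 in limma. This call was lost under 13 of 14 alternatives, with adjusted p up to 0.071, and without any 1 of the 6 mice; the ratio fell to -0.81 with the authors' normalized values. In this direct comparison Lgals3bp had a log2 ratio of -1.08 ± 0.21 (adjusted p 0.027) and Ifitm3 one of -0.78 ± 0.14 (adjusted p 0.022).

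**Figure D1:**
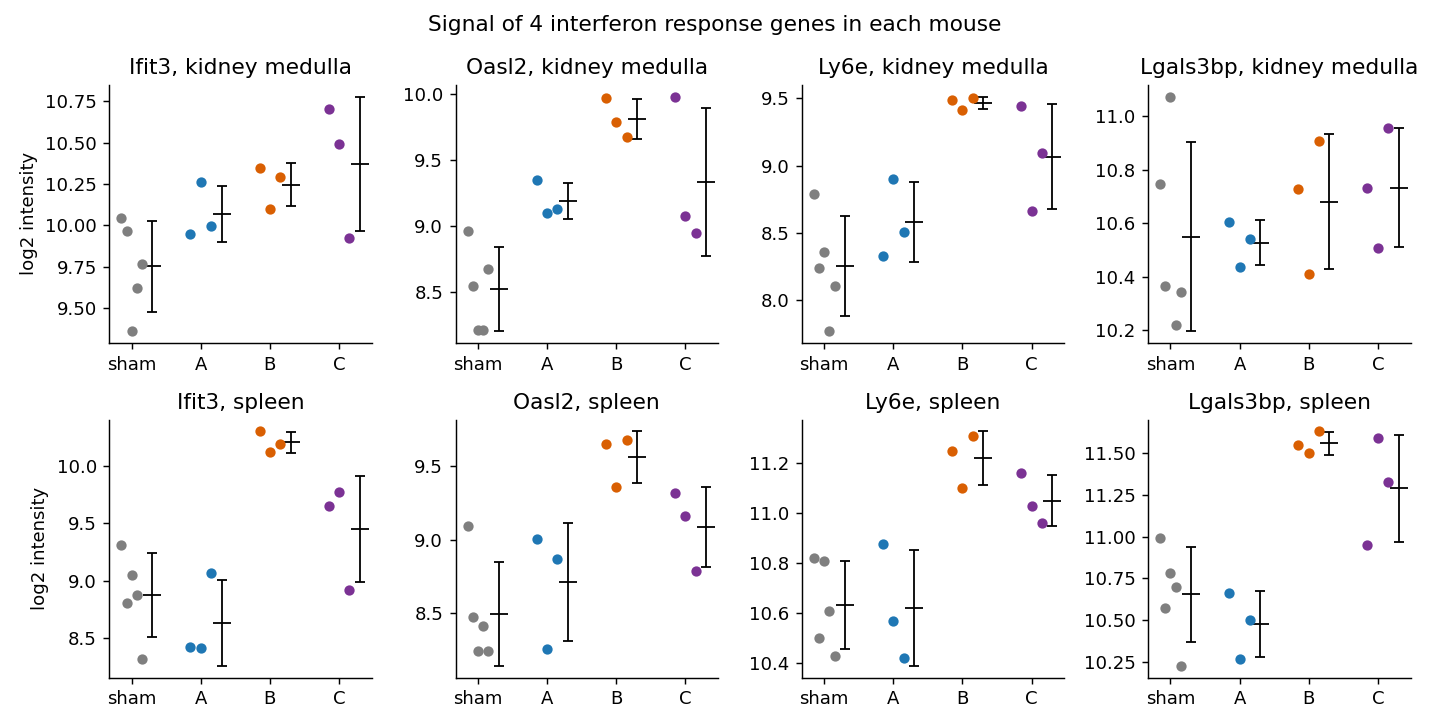
The plots give log2 intensity (y axis) of Ifit3, Oasl2, Ly6e and Lgals3bp in each mouse of the kidney medulla (top) and spleen (bottom), by group (x axis: sham, A, B and C). Each point is 1 mouse and the bars beside the points are mean ± SD; in the spleen the 3 group B mice lay above all sham mice for each of the 4 genes, and in the kidney medulla Lgals3bp overlapped.

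In the kidney medulla of group B, 2 of 25 measured genes passed the threshold (8%), Oasl2 and Ly6e, where 219 of 12296 probes did (1.78%). Oasl2 read 9.97, 9.78 and 9.67 in group B and 8.96, 8.54, 8.21, 8.21 and 8.67 in sham mice. Ly6e read 9.49, 9.41 and 9.50 in group B and 8.79, 8.24, 8.36, 7.77 and 8.10 in sham mice. For both genes every irradiated mouse was above every sham mouse. Oasl2 rose by a log2 ratio of 1.29 ± 0.23 (SE), or 2.44-fold, with an adjusted p of 0.0058 in limma. Ly6e rose by a log2 ratio of 1.21 ± 0.22 (SE), or 2.32-fold, with an adjusted p of 0.0065 in limma. The calls were close to the threshold: without 1 mouse at a time, the adjusted p over the 8 cases ran from 0.0071 to 0.038 in limma. Neither gene was called in 7 of the 8 cases, and only leaving out replicate 1 of the sham mice kept both.

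Ifit3 was called in the kidney medulla of group B on a dimmer probe, which read 9.0, 8.76 and 8.81 in group B and 7.99, 8.13, 7.26, 7.57 and 7.58 in sham mice. The groups did not overlap, the log2 ratio was 1.15 ± 0.22 (SE), and the adjusted p was 0.0081 in limma. Leaving out any 1 of the 8 mice ended this call, with adjusted p from 0.011 to 0.045. On its chosen, brighter probe Ifit3 read 10.35, 10.10 and 10.29 against 10.04, 9.97, 9.36, 9.62 and 9.77. That probe gave a log2 ratio of 0.49 ± 0.19 (SE) and an adjusted p of 0.13 in limma, so the size of the difference depended on the probe.

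Over the whole set of genes, 11 of 25 were higher (44%) and 0 were lower in the kidney medulla of group B at an unadjusted p under 0.05, where 12.3% of all probes were higher and 10.5% were lower. The median log2 ratio was 0.40, against -0.05 over all probes. All 3 measured members of the OAS family were among the 11 (Oas2, Oasl1 and Oasl2), as were Isg15 and Usp18, the protease that removes Isg15 from proteins and dampens the receptor. The count was 7 without replicate 1 of group B, 5 without replicate 3 of group B (the mouse with high Ager) and 7 without replicate 4 of the sham mice.

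Group C showed a like pattern in the kidney medulla, where 13 of 25 genes were higher (52%) and 0 were lower at an unadjusted p under 0.05, where 13% of all probes were higher and 13.6% were lower. The genes had a median log2 ratio of 0.38. None was called, against 16 probes (0.13%), but without replicate 3 of group C 4 genes were (Ifit2, Ifit3, Oasl1 and Trim25). Ifit2, an RNA-binding relative of Ifit3, read 9.67, 9.91 and 9.44 in group C and 9.20, 8.98, 8.71, 8.99 and 8.88 in sham mice. All 3 lay above the sham mice, and the log2 ratio was 0.72 ± 0.16 (SE) with an adjusted p of 0.036 in limma. Oasl1 had the highest log2 ratio, 1.40, from values of 7.32, 8.53 and 5.94 against 6.04, 5.62, 6.12, 6.04 and 5.51. The last of these mice lay within the sham range.

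Group A had its kidneys outside the field, and in its medulla 1 of 25 genes was higher (4%) and 0 were lower at an unadjusted p under 0.05, where 12.5% of all probes were higher and 11.1% were lower. The median log2 ratio was 0.05. None was called, against 171 probes of the tissue (1.39%). The gene was Oasl2, which read 9.34, 9.10 and 9.12, above the 5 sham mice. Its log2 ratio was 0.67 ± 0.23 (SE), with an adjusted p of 0.089 in limma. Ifit3 had ratios of 0.78 and 0.83 on its dimmer probes, both with all 3 mice above sham, and 0.32 on the chosen one. Ifit2 read 9.10, 9.49 and 9.07 on its dimmer probe against 8.38, 8.20, 7.87, 8.27 and 8.15 in sham mice. All 3 mice were above sham, with a log2 ratio of 1.05 ± 0.21 (SE) and an adjusted p of 0.011 in limma, while groups B and C had 0.92 and 1.22 on this probe. On its chosen probe Ifit2 had a ratio of 0.32 in group A. In the direct comparison of A against B, 6 of 25 genes were lower (24%) and 0 were higher, where 1.85% of all probes were lower and 1.44% were higher. No gene and no probe was called (0%), and the smallest adjusted p among the genes was 0.83 in limma.

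In the kidney cortex of group B, 11 of 24 genes were higher (45.8%) and 0 were lower at an unadjusted p under 0.05, where 5.69% of all 12527 probes were higher and 8.21% were lower. The genes had a median log2 ratio of 0.51. No gene and no probe was called (0%). Ly6e had the highest ratio, with 9.40, 9.26 and 9.44 in group B and 8.71, 8.37, 8.38, 7.57 and 8.05 in sham mice. The groups did not overlap, and the log2 ratio was 1.15 ± 0.25 (SE), with an adjusted p of 0.14 in limma. Mx2 read 6.71, 5.69 and 5.80 against 5.39, 4.69, 5.52, 4.65 and 5.04, a log2 ratio of 1.01 ± 0.31 (SE). With the authors' normalized values this ratio was 0.33, that of Ifi35 fell from 0.50 to 0.25 and the median over the genes was 0.26. Irf7 had a log2 ratio of 0.98 and Usp18 one of 0.80. The count was 6 without replicate 1 and 5 without replicate 3 of group B.

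Ifit3 gave opposite signs on different probes in the kidney cortex of group B. On the chosen probe it read 9.70, 9.44 and 9.89 in group B and 9.05, 8.50, 9.26, 8.55 and 8.89 in sham mice, a log2 ratio of 0.82 ± 0.35 (SE). On a dimmer probe it read 5.22, 7.11 and 7.30 against 6.86, 6.24, 7.44, 6.82 and 6.82, a log2 ratio of -0.29 ± 0.50 (SE). On the third probe it read 6.06, 7.17 and 7.03 against 6.54, 6.20, 7.07, 6.71 and 6.76, a log2 ratio of 0.10 ± 0.34 (SE). The first group B mouse was below every sham mouse on both dimmer probes and above them all on the chosen one. No direction is therefore given for Ifit3 in this tissue, and the 11 higher genes counted there include it on its chosen probe only.

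In the kidney cortex of group C, 4 of 24 genes were higher (16.7%) and 0 were lower at an unadjusted p under 0.05, where 3.76% of all probes were higher and 4.84% were lower. The median log2 ratio was 0.39. The count was 1 without replicate 1 of group C, 7 without replicate 2 and 9 without replicate 3. In group A, 1 gene was higher (4.17%) and 0 were lower, where 3.91% of all probes were higher and 3.85% were lower. The median log2 ratio was 0.11. No gene and no probe was called in group A or in group C (0% in both). The gene in group A was Ifi35, an interferon-induced leucine zipper protein. Group A read 7.24, 6.95 and 7.41, and group B read 7.04, 7.25 and 7.23. The values of group C were 7.12, 6.96 and 7.12, against 6.45, 6.81, 6.93, 6.68 and 6.51 in sham mice. All 9 irradiated mice were above all sham mice. The log2 ratios were 0.52, 0.50 and 0.39 for A, B and C, with adjusted p of 0.38, 0.20 and 0.56 in limma. In the direct comparison of A against B, 7 of 24 genes were lower (29.2%) and 0 were higher, where 3.12% of all probes were lower and 4.06% were higher, and none was called (0%).

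**Figure D2:**
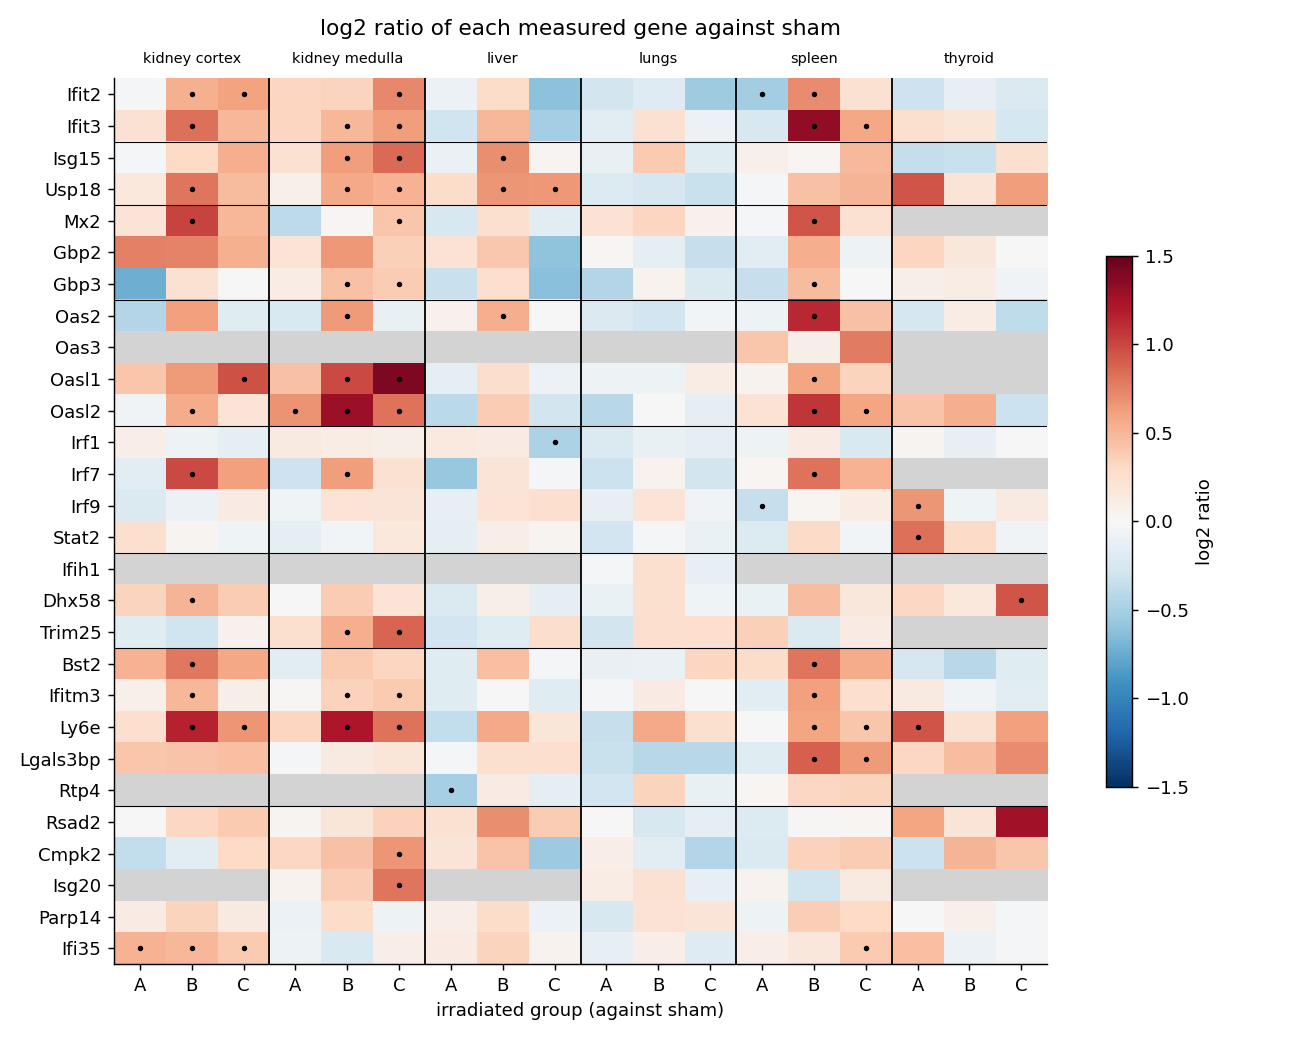
The map gives the log2 ratio against sham (color, red higher and blue lower) of the 28 genes with a detected probe (rows, grouped by role) in groups A, B and C of each tissue (columns). Gray marks a gene that was not measured in the tissue and a dot an unadjusted p under 0.05; the columns of group B in the kidney cortex, kidney medulla and spleen hold 11, 11 and 12 dots, all on higher values.

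In the liver the differences from sham were small. In group B 23 of 25 genes lay above the sham mean, with a median log2 ratio of 0.27. At an unadjusted p under 0.05, 3 genes were higher (12%) and 0 were lower, where 1.89% of all 10623 probes were higher and 3.42% were lower. Usp18 read 10.16, 9.77 and 9.95 in group B and 9.80, 9.24, 9.41, 8.59 and 9.46 in sham mice, so that 1 irradiated mouse fell within the sham range. Its log2 ratio was 0.66 ± 0.22 (SE). Oas2 read 7.40, 6.70 and 6.90 against 6.26, 6.23, 6.72, 6.70 and 6.37, a log2 ratio of 0.54 ± 0.22 (SE), again with 1 irradiated mouse inside the sham range. Without replicate 1 of group B, 1 gene was higher. In group C 1 gene was higher (Usp18) and 1 was lower (Irf1, a factor first known for its binding to the interferon beta gene), each 4%, where 8.06% of all probes were higher and 7.39% were lower. The median log2 ratio of group C was -0.09, although these livers lay in the field. Usp18 read 9.95, 10.12 and 9.78 in group C, with 1 of the 3 mice within the sham range. On the dimmest of its 3 probes all mice of groups A, B and C lay above sham. Group A read 6.46, 6.30 and 6.33 there, against 5.38 to 6.28 in sham mice. On the remaining probe group C lay above sham, and groups A and B overlapped with sham.

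In the liver of group A, 0 of 25 genes were higher and 1 was lower (4%), where 3.24% of all probes were higher and 4.8% were lower. The gene was Rtp4, a chaperone-like receptor transporter protein that interferon induces. It read 5.39, 4.89 and 5.10 in group A and 5.70, 5.69, 5.76, 5.35 and 5.63 in sham mice. The highest group A mouse lay just inside the sham range, and the log2 ratio was -0.50 ± 0.17 (SE). No gene was called in the liver of groups A, B or C, where 0 (0%), 0 (0%) and 2 probes (0.0188%) were. In the direct comparison of A against B, 5 of 25 genes were lower and 0 higher at an unadjusted p under 0.05. In that of B against C, 7 were higher and 0 lower. The median log2 ratios were -0.38 and 0.37. No gene was called in either, and the shares of all probes are not given for them.

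In the lungs 0 of 27 genes reached an unadjusted p under 0.05 in either direction in any group, and 0 were called in any. Of all 13356 probes, 0.427% were higher and 0.659% lower in group A. These shares were 3.26% and 2.09% for group B, and 3.41% and 2.54% for group C. Called probes numbered 1 in group B (0.00749%) and 0 in groups A and C (0% in each). The median log2 ratios of the genes were -0.17, 0.05 and -0.12. Ly6e read 11.38, 11.32 and 11.44 in the lungs of group B and 10.94, 10.70, 10.95, 10.98 and 10.48 in sham mice. The 2 sets did not overlap, but the log2 ratio of 0.57 had an interval from -0.05 to 1.18 (95% confidence). Cmpk2, a mitochondrial nucleotide kinase that lies beside Rsad2, read 8.58, 8.12 and 7.99 in group C against 9.01, 8.56, 8.90, 8.54 and 8.31 in sham mice. Rtp4 read 5.98, 5.81 and 6.40 in group B against 5.83, 5.30, 5.56, 6.05 and 5.90. Both genes overlapped with sham. The lungs of groups B and C lay in the field. The mean log2 intensity of 5 heart muscle markers varied between lungs, from 8.22 to 9.93 in group A and 5.65 to 8.44 in group B. It ran from 6.61 to 10.48 in group C and 6.29 to 9.99 in sham mice. The part of heart tissue in the lung values was not tested. For Ifit3 in the lungs of group B the interval of the log2 ratio was -0.26 to 0.71 (95% confidence).

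The samples labelled thyroid differed in tissue content, and this bears on every value from them. Tg, the gene for thyroglobulin and the defining product of thyroid follicles, ranged from 4.41 to 14.43 in log2 intensity among the sham mice and from 4.42 to 14.53 among the irradiated mice. It was near the floor in 3 of 5 sham mice, and the skeletal muscle markers averaged 14.16 to 14.24 in sham mice and from 4.63 to 14.16 in group A. Of the 20 measured genes, 3 were higher in group A (15%) and 0 were lower at an unadjusted p under 0.05, where 3.26% of all 11705 probes were higher and 5.19% were lower. In group B 0 were higher or lower, where 0.572% and 0.316% of all probes were, and in group C 1 was higher (5%) and 0 lower, where 0.982% and 0.367% of all probes were. No gene and no probe was called in groups A, B and C (0%, 0% and 0%).

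Ly6e read 7.89, 7.94 and 7.70 in the thyroid of group A and 7.27, 6.47, 6.67, 7.02 and 7.10 in sham mice, without overlap. Its log2 ratio was 0.94 ± 0.29 (SE), with an adjusted p of 0.50 in limma. Stat2, which acts together with Irf9, read 6.16, 6.94 and 5.80 against 5.49, 4.96, 5.49, 5.96 and 5.46, a log2 ratio of 0.83 ± 0.31 (SE). Dhx58, a helicase that modulates the RNA sensors, read 5.75, 6.89 and 5.40 in group C against 4.80, 4.78, 5.18, 5.58 and 5.03, a log2 ratio of 0.94 ± 0.38 (SE). Stat2 and Dhx58 each had 1 irradiated mouse within the sham range. The part of muscle and other tissue in these values was not tested.

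**Figure D3:**
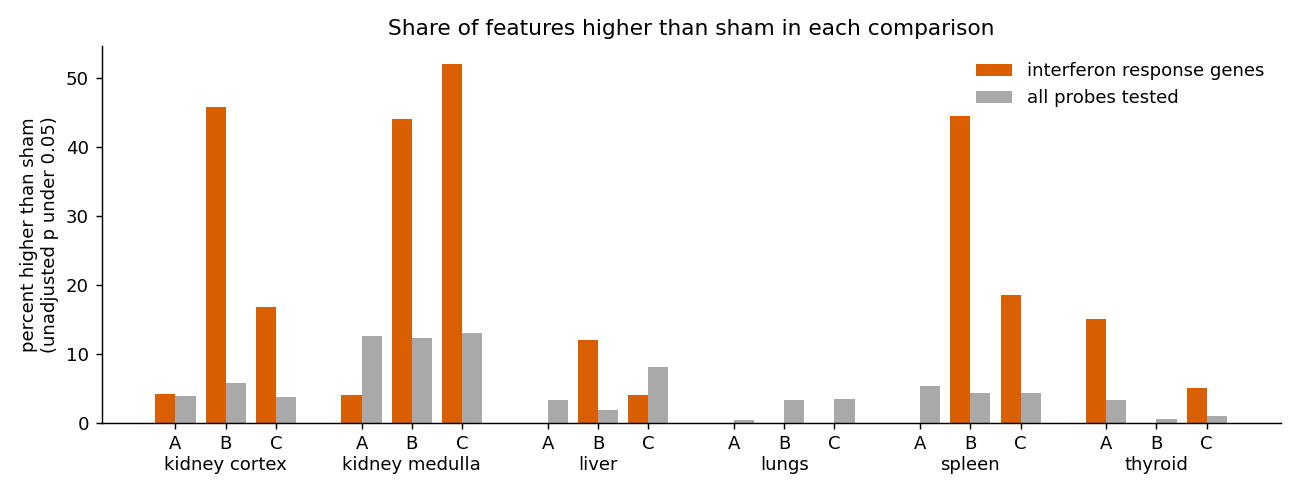
Bars give the percent of measured interferon response genes (orange) and of all probes tested (gray) that were higher than sham at an unadjusted p under 0.05 (y axis), for groups A, B and C of each tissue (x axis). The orange bars of group B reach 44.4% in the spleen, 45.8% in the kidney cortex and 44% in its medulla, and the lungs have no orange bar.

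The values of single mice showed how evenly the differences were shared within a group. For each mouse the deviation of every measured gene from its sham mean was taken, and the median over genes is given on the log2 scale. In the spleen these medians were 0.57, 0.37 and 0.40 for group B. They were 0.62, 0.25 and 0.03 for group C and 0.01, -0.18 and -0.03 for group A, against 0.29, 0.03, 0.03, -0.10 and -0.12 in sham mice. The medulla had 0.42, 0.34 and 0.42 for group B. It had 0.65, 0.41 and 0.17 for group C and 0.08, 0.10 and -0.05 for group A, against 0.24, 0.01, 0.00, -0.21 and 0.03 in sham mice. In both tissues all 3 mice of group B lay above all sham mice. In the kidney cortex the medians were 0.53, 0.21 and 0.63 in group B, with 1 mouse inside the sham range of -0.19 to 0.22.

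Group C was less even. Replicate 1 of this group had the highest median of its group in 6 of 6 tissues, from 0.18 in the lungs to 0.89 in the kidney cortex, where all 24 genes of that mouse lay above the sham mean. The labels do not say whether a replicate number marks the same mouse in all tissues. Among sham mice the highest medians were those of replicate 4 in the lungs (0.43) and thyroid (0.53), which exceeded the medians of all irradiated mice in those tissues.

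**Figure D4:**
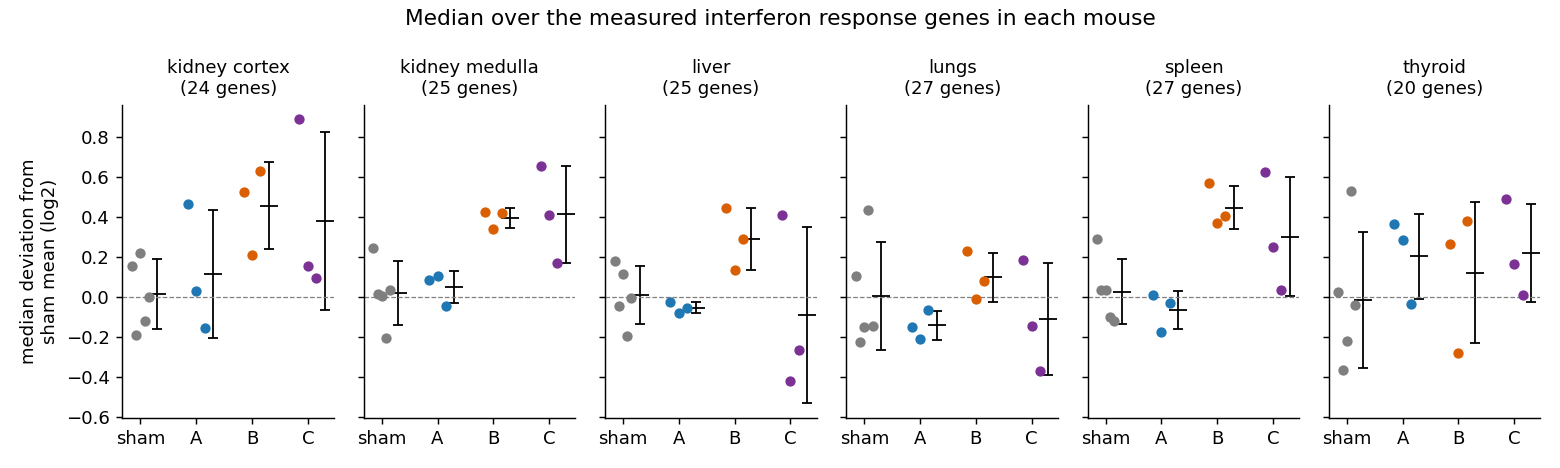
Each point is 1 mouse and gives the median, over the measured genes, of the deviation from the sham mean (y axis, log2), by group (x axis: sham, A, B and C) in the 6 tissues; bars are mean ± SD and the dashed line is 0. In the spleen and kidney medulla the 3 points of group B lie above all sham points, and in the lungs and thyroid the highest point is a sham mouse.

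Across tissues, Ly6e, Dhx58, Gbp3 and Parp14 were measured in 6 tissues and had log2 ratios above 0 in group B in all 6, on their chosen probes. Ifit3 did so too on its chosen probe, but not on a dimmer one in the kidney cortex or on either dimmer one in the thyroid. On its other probe Gbp3 lay slightly below sham in the lungs of group B, with means of 9.48 and 9.55. The range was 0.23 to 1.21 for Ly6e and 0.08 to 0.36 for Parp14, an enzyme that adds ADP-ribose to proteins. On their chosen probes Ly6e, Oasl2, Ifit3, Ifitm3 and Irf7 reached an unadjusted p under 0.05 in both parts of the kidney and in the spleen. For Ifit3 in the kidney cortex no direction is given, since its probes disagreed. Usp18 did so in both parts of the kidney and the liver, and Oas2 in the kidney medulla, liver and spleen. By contrast, on their chosen probes Irf1 ranged from -0.13 to 0.12 in group B, and Irf1, Irf9 and Stat2 reached that p in no tissue of group B. Another Irf1 probe lay outside this range. Its means in group B and sham mice were 8.23 and 8.51 in the kidney medulla, and 8.61 and 8.38 in the cortex. Whether a ratio in 1 tissue differs from that in another was not tested.

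In sham mice the basal level of the genes differed strongly between tissues. On values normalized over all arrays together, all 28 genes with a detected probe differed among the 6 tissues, those without detection included, at an adjusted p under 0.01 (F test in limma), as did 93.7% of 15933 probes. Of the 20 genes detected in all 6 tissues, 9 had their highest mean in the spleen, 7 in the lungs, 2 in the liver and 2 in the kidney medulla, while 11 had their lowest mean in the thyroid, 7 in the kidney cortex and 2 in the liver. Rsad2 had the widest range: its mean log2 intensity was 13.76 ± 0.17 in the spleen, 9.74 ± 0.29 in the kidney medulla and 8.13 ± 1.34 in the thyroid (SD). Isg15 was at 11.28 ± 0.52 in the spleen and at 7.79 ± 0.05 or below in the other tissues. Isg20, an exonuclease that degrades RNA, was at 9.71 ± 0.18 in the spleen, 7.24 ± 0.33 in the lungs and 5.25 ± 0.16 in the kidney medulla, the 3 tissues in which its probe was detected. For all 3 genes the spleen stood apart from the next tissue without overlap of the 5 mice.

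Other genes had their highest level elsewhere. Bst2 was highest in the liver (9.56 ± 0.54) and Ifit3 in the lungs (10.98 ± 0.38), each apart from the tissue next in order. Gbp2, a guanylate-binding GTPase, was highest in the lungs (10.89 ± 0.95). Ly6e was at 10.68 ± 0.19 in the spleen, 10.56 ± 0.25 in the lungs and 10.38 ± 0.14 in the liver, which overlapped, and at 8.03 ± 0.38 in the kidney medulla, which did not overlap with the liver. The 2 genes called in the kidney medulla of group B, Oasl2 and Ly6e, had a lower basal level there than in the lungs. So had every other gene with a detected probe except Ifit2, Gbp3 and Rsad2.

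**Figure D5:**
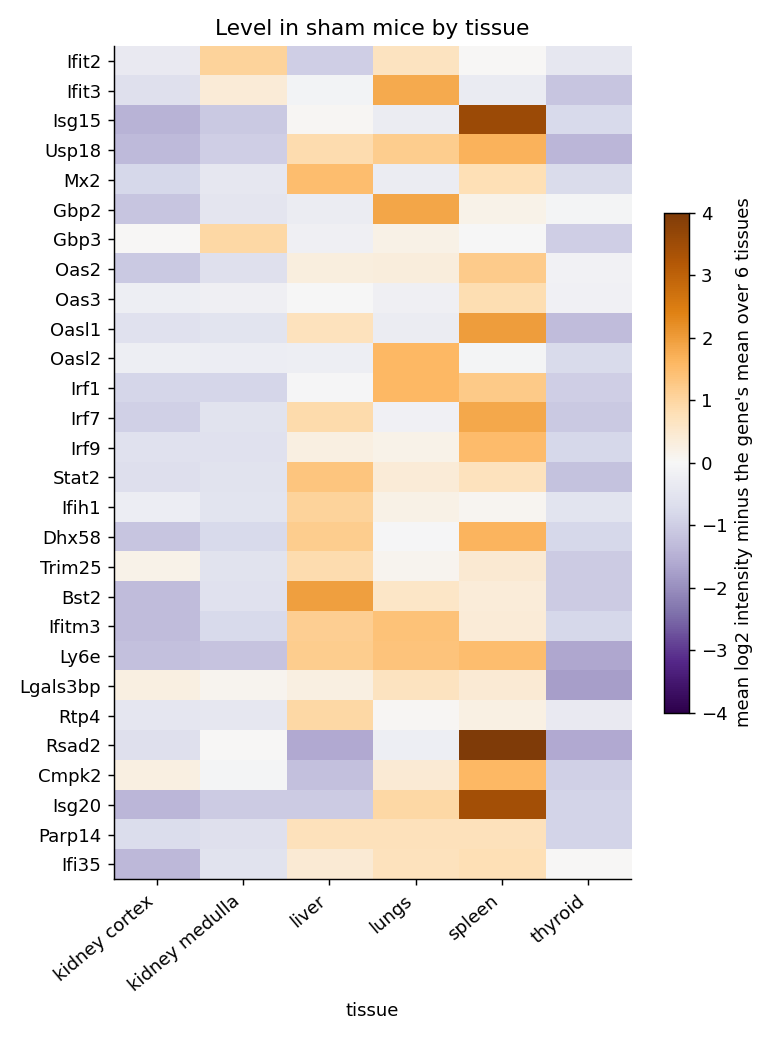
The map gives, for the 28 genes with a detected probe (rows), the mean log2 intensity of 5 sham mice in each tissue (columns) minus the mean of that gene over the 6 tissues, so that colors compare tissues within a gene and not genes with each other, and tissues without detection are included. Brown marks a higher and purple a lower level; Rsad2, Isg15 and Isg20 were highest in the spleen.

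Other genes of the interferon pathway were read in the same comparisons. A list of 74 further genes held ligands, receptors, kinases and factors, restraining genes, sensors and other induced genes, and none was called in any comparison with sham. At an unadjusted p under 0.05 in group B, the spleen had 1 of 44 measured genes higher and 0 lower, the kidney medulla 7 of 39 higher and 1 lower, and the kidney cortex 5 of 40 higher and 3 lower. Over all probes the shares higher were 4.22%, 12.3% and 5.69%. The kidney medulla also had 7 of 39 higher in group A, with 3 lower, and 7 higher in group C, with 2 lower. Of all probes there, 12.5% were higher and 11.1% lower in group A, and 13% were higher and 13.6% lower in group C. In group B the median log2 ratios of the list were 0.05, 0.03 and 0.12 in spleen, medulla and cortex. None of the 12 ligands was measured in these 3 tissues. The gene in the spleen was Cxcl10, a chemokine that interferon induces, with a log2 ratio of 0.92. Among the 7 genes of the medulla were Ifi47, an immunity-related GTPase (1.34 ± 0.29, adjusted p 0.016 in limma), Psmb9, a subunit of the immunoproteasome (0.93 ± 0.27), and Parp12 (0.70 ± 0.15, adjusted p 0.015 in limma). Jak1, the receptor kinase, had log2 ratios of 0.97, 0.99 and 1.33 there in groups A, B and C, with adjusted p of 0.047, 0.042 and 0.024 in limma.

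Markers of leukocytes moved with some of these groups, and fewer cells of a type and less RNA per cell cannot be told apart in such tissue RNA. In the spleen of group B, 3 of 7 measured macrophage markers were higher and 0 lower at an unadjusted p under 0.05, with a median log2 ratio of 0.56, where 4.22% of all probes were higher. The mean level of these markers was 10.69 to 10.92 in the group B mice and 9.76 to 10.77 in the sham mice, and it was 9.91 to 10.21 in group A. In the direct comparison of A against B, 4 of the 7 were lower in group A, with a median log2 ratio of -0.87, where 9.57% of all probes were lower. In the spleen of group C all 7 measured B lymphocyte markers were lower, with a median log2 ratio of -1.22 and mean levels of 8.02 to 9.72 against 9.65 to 10.70 in sham mice, where 5.96% of all probes were lower. The macrophage gene Emr1 was called in the kidney medulla of group B (log2 ratio 1.28 ± 0.22, adjusted p 0.0055 in limma), while C1qa, C1qb, C1qc and Vcam1 had ratios of 0.15, 0.01, 0.22 and 0.16. Siglech, a marker of plasmacytoid dendritic cells, had log2 ratios of 1.26, 1.25 and 0.62 in the medulla of groups A, B and C, with adjusted p of 0.021, 0.023 and 0.19 in limma. The part of these cells in the values of the interferon response genes was not tested.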

How the data were processed

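RNA from 6 tissues of 14 mice was hybridized to 88 arrays with 25697 probes. The authors deposited probe intensity without normalization with a detection p-value (its making is not given in the sources used here), and intensity that they had quantile-normalized with the BioArray Software Environment. The first were background-corrected with nec of limma 3.58.1 (R 4.3.3, offset 16), quantile-normalized within a tissue and taken to log2. The 3 arrays of liver group A replicate 1, and those of thyroid sham replicate 5, were averaged, so n counts mice. Probes with a detection p under 0.01 on at least 3 arrays of a tissue (10623 to 13356) were tested with lmFit and eBayes over all 14 mice and adjusted by Benjamini and Hochberg. Between 33.17% and 50.28% of probes were detected per array, and the number of arrays limits the precision.

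Each gene was read on its brightest detected probe over all samples. Values per mouse are given for genes called on any probe, for the 3 genes with the smallest p in each tissue and for genes whose probes disagreed by over 1. Further genes given by value were picked with their values in view. The members and lists were chosen with earlier results of these data known. The files name no genome build, so coordinates are those of the promoter table. The fit was tested on simulated data. Alternatives were no background correction, normalization over all arrays, the authors' values, no detection filter, fewer groups in the fit, another variance model, the replicate block, the brightest probe per tissue and leaving out each replicate.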

Additional observations from a re-analysis of the deposited data

Results flagged for a closer look

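Ifit3 differed between irradiation setups in the spleen: on a dimmer probe the log2 ratio of group A against group B was -1.73, which passed the threshold for a call but missed it under 13 of 14 alternatives. On the chosen, brighter probe it was -1.57 with an adjusted p of 0.020 in limma. The sham values of the genes picked by the stated rules, 20 sets of 5 on chosen probes, were also searched for a single outlying mouse. Chance flags about 1 in 20 such sets, and 0 were found. The values of dimmer probes and of further genes, such as Oas2 and Oasl2 in the spleen, were not searched.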

How the results depend on the processing

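In the kidney medulla of group B, the number of genes called fell from 2 to 0 without the detection filter and with the replicate block, was 3 with only the compared groups in the fit, and ranged from 0 to 2 when 1 replicate was left out. In the kidney medulla of group C it ranged from 0 to 4 when 1 replicate was left out. In the spleen, group A against group B, it rose from 0 to 1 (Ifitm3) with no background correction, with the authors' normalized values, with no detection filter and with the variance trend and robust moderation. The cause was not tested. In all other comparisons of groups the number called was 0 under each alternative run, and 28 genes differed among sham tissues under each of its 3 alternatives. The 36 log2 ratios followed for genes given per mouse had an unadjusted p under 0.05 or were called on a dimmer probe. This selection favors a stable sign, and none changed sign under any alternative run. Under the alternatives, 41 values of called ratios missed the threshold and 6 values of ratios not called passed it. Over the alternatives other than leaving out a replicate, the count of genes higher at an unadjusted p under 0.05 in group B was 9 to 14 in the spleen, 8 to 15 in the kidney medulla and 7 to 11 in the kidney cortex.

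The replicate numbers were not shown to pair mice: deviations of same-numbered irradiated and sham mice correlated from -0.48 to 0.68, and 12 of 54 pairs were over 0.1. Of the 54, 17 correlated best with their own number. With the replicate block those counts in group B were 9 in the spleen, 8 in the kidney medulla and 7 in the kidney cortex, and in the spleen of group C it was 2. The chip as a block was not run, since the column headers name none. Probes not above background, as for Ifit1, Mx1, Oas1a and Xaf1, give no measured difference.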
